A study of Mus musculus with 6 samples.

Results

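Transcripts of 9 genes for laminins and their partners in the basement membrane, Lama2, Lama4, Lama5, Lamb1, Lamb2, Lamc1, Nid1, Nid2 and Hspg2, were examined in mouse heart. They were chosen by gene symbol, and all 9 were found among the 24525 gene rows of the deposited table. Laminins are cross-shaped secreted proteins, each assembled from an alpha, a beta and a gamma chain. They polymerise into a sheet on the surface of cardiomyocytes, vessels and nerves and are held there by integrins and dystroglycan. Nidogens bridge this sheet to a network of collagen IV, and perlecan, a large heparan sulfate proteoglycan encoded by Hspg2, also binds to it. In muscle the basement membrane carries contractile force from the cell to the surrounding matrix, and loss of the alpha chain encoded by Lama2 causes a congenital muscular dystrophy.

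The study compared hearts of double knockout mice (DKO; replicates 7, 8 and 9) with hearts labelled wild type (WT; replicates 4, 5 and 6), all from animals aged 3 to 6 months. The DKO genotype combined Mbnl1-/-, a loss in every cell, with Mbnl2cond/cond and Myh6-Cre+/-, in which Cre recombinase acts under the cardiomyocyte promoter of Myh6, so fibroblasts, vessel cells and other cells of the heart would keep Mbnl2. No further genotype is given for the WT animals, and whether each library is a separate animal is not stated, which leaves the p-values as a measure of spread between libraries. MBNL proteins regulate alternative splicing and are sequestered in myotonic dystrophy.

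Total RNA was measured as TPM, a transcript level scaled by transcript length and by the library's total, and the sequencing depth behind the values is unknown. Between 14084 and 14623 genes reached 1 TPM in a library. Of the 10 cardiomyocyte markers all were detected, with summed levels of 53314 to 54056 TPM in DKO and 57855 to 59199.8 TPM in WT. Mbnl1 had 102, 108 and 107 TPM in DKO 7, 8 and 9, against 161, 159.8 and 145 TPM in WT 4, 5 and 6. Mbnl2 had 227, 239.7 and 245 TPM in DKO, against 189, 168 and 149 TPM in WT, which is higher and not lower in the libraries labelled DKO. A gene-level sum can include transcript parts outside a deletion, so neither value checks the genotype. DKO 7 carries a WT genotype tag but is DKO by title and source name, and it was placed in DKO. DKO 7 and DKO 8 had Xist (152 and 174 TPM), while DKO 9 and all WT libraries had Y-linked transcripts, so the groups also differ in sex-linked transcripts.

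None of the 9 genes passed the test between DKO and WT (limma on log2(TPM + 1), Benjamini-Hochberg adjusted p under 0.05), against 10.7% of the 14541 genes tested. An unadjusted p under 0.05 was reached by 2 of the 9, Nid2 and Lamb1, against 27.0% of all genes tested. The 3 DKO values lay apart from the 3 WT values for 1 of the 9, Nid2, against 33.0% of all genes tested. The median log2 difference, DKO minus WT, was -0.05 over the 9 genes and 0.03 over all genes tested. All 9 passed the filter of at least 1 TPM in at least 3 libraries, in both groups. In whole tissue, fewer cells of a type and less RNA per cell cannot be told apart.

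**Figure D1:**
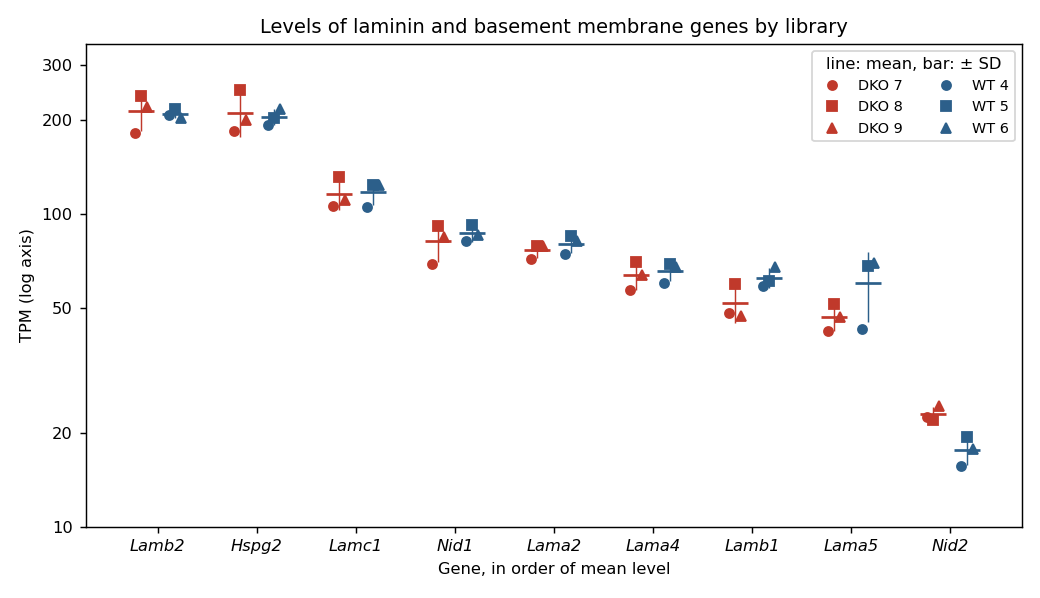
TPM (log axis) of the 9 genes in each library, DKO in red left of WT in blue, with a line at the group mean and a bar for ± SD (n = 3 libraries per group). Lamb2 (mean 212 TPM) and Hspg2 (208 TPM) stood highest and Nid2 (20.3 TPM) lowest, and only Nid2 had groups that did not overlap.

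Averaged over the 6 libraries, Lamb2 (212 ± 18.9 TPM) and Hspg2 (208 ± 23.1 TPM) stood highest. Lamb2 exceeded Hspg2 in 3 of the 6 libraries, so this pair was not separated. Lamc1 followed at 117 ± 10.9 TPM, below Hspg2 in all 6 libraries and above Nid1 (84.3 ± 8.39 TPM) in all 6. Nid1 was above Lama2 (78.5 ± 4.82 TPM) in 5 of 6 libraries, with overlapping ranges. Lama4 (64.7 ± 5.23 TPM) was below Lama2 in all 6, and Lama4, Lamb1 (57.2 ± 7.89 TPM) and Lama5 (53.7 ± 12.4 TPM) overlapped each other. Nid2 was lowest, at 20.3 ± 3.23 TPM (SD over 6 libraries).

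Among the alpha chains, which carry most of the binding to cell receptors, Lama2 encodes the main chain of the laminin around heart and skeletal muscle cells. It had 71.7, 79.1 and 79.2 TPM in DKO 7, 8 and 9, against 74.3, 84.8 and 82.0 TPM in WT 4, 5 and 6. The groups overlapped, the log2 difference was -0.07 (SE 0.08, 95% interval -0.26 to 0.12; limma, adjusted p = 0.646), and the interval corresponds to 0.837 to 1.09 of the WT level on the TPM + 1 scale. Lama4, an alpha chain found in vessel walls and around muscle cells, had 57.2, 70.4 and 63.7 TPM in DKO, against 60.4, 69.3 and 67.5 TPM in WT. Its groups overlapped as well, with a log2 difference of -0.05 (SE 0.10, 95% interval -0.28 to 0.19; limma, adjusted p = 0.814).

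Lama5, an alpha chain of vessel and epithelial basement membranes, was the least steady of the 9. It had 42.4, 51.6 and 46.9 TPM in DKO 7, 8 and 9, against 43.0, 68.5 and 69.6 TPM in WT 4, 5 and 6. WT 4 lay with the DKO libraries, while WT 5 and WT 6 lay above all of them. The log2 difference was -0.33 (SE 0.19, 95% interval -0.78 to 0.13; limma, adjusted p = 0.331). Without WT 4 it was -0.55 and passed the threshold (limma, adjusted p = 0.0435), the only setting among those tried in which any of the 9 genes was called. Without WT 5 or WT 6 it was -0.22 and -0.21, and with DKO 7 placed in WT by its genotype tag it was -0.14.

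Lamb2, the beta chain that is enriched at the neuromuscular junction and the kidney filter, had 182, 238 and 221 TPM in DKO, against 208, 217 and 204 TPM in WT. The DKO values spread on both sides of the WT values, and the log2 difference was 0.02 (SE 0.10, 95% interval -0.23 to 0.26; limma, adjusted p = 0.935). Lamb1, the widely expressed beta chain, had 48.4, 59.7 and 47.2 TPM in DKO 7, 8 and 9, against 58.8, 61.2 and 67.7 TPM in WT 4, 5 and 6. DKO 7 and DKO 9 lay below all WT libraries, and DKO 8 lay within the WT range. The log2 difference of Lamb1 was -0.27 (SE 0.11, 95% interval -0.54 to -0.01), with an unadjusted limma p of 0.0432 and an adjusted p of 0.170. With DKO 7 placed in WT it was -0.14.

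Lamc1 encodes the gamma chain shared by most laminins. It had 106, 132 and 111 TPM in DKO, against 105, 124 and 124 TPM in WT, and the groups overlapped over almost their whole range. The log2 difference was -0.02 (SE 0.11, 95% interval -0.27 to 0.24; limma, adjusted p = 0.939). Perlecan (Hspg2) had 184, 249 and 199 TPM in DKO, against 193, 203 and 217 TPM in WT. Its highest and lowest values were both in DKO, and the log2 difference was 0.03 (SE 0.12, 95% interval -0.25 to 0.31; limma, adjusted p = 0.888).

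Nid1, the more abundant of the nidogens in these libraries, had 69.2, 91.7 and 84.5 TPM in DKO, against 82.2, 92.2 and 85.9 TPM in WT. Its groups overlapped, with a log2 difference of -0.09 (SE 0.11, 95% interval -0.36 to 0.18; limma, adjusted p = 0.660). Nid2, the less abundant nidogen, had 22.5, 22.0 and 24.3 TPM in DKO 7, 8 and 9, against 15.7, 19.4 and 17.8 TPM in WT 4, 5 and 6. Every DKO value lay above every WT value. DKO averaged 22.9 ± 1.22 TPM and WT 17.6 ± 1.87 TPM (SD, n = 3 each), a ratio of 1.30. The log2 difference was 0.36 (SE 0.11, 95% interval 0.11 to 0.62), with an unadjusted limma p of 0.0122 and an adjusted p of 0.0795, so Nid2 missed the threshold.

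The Nid2 difference kept its sign in all 17 alternatives, between 0.29 and 0.45, and its adjusted p (limma) lay between 0.0557 and 0.535. With DKO 7 placed in WT by its genotype tag the groups overlapped, and the difference was 0.29 (limma, adjusted p = 0.535). It was 0.38 without DKO 7 and 0.45 in the libraries with Y-linked transcripts alone, where DKO 9 is the lone DKO library and is taken to vary as WT does. Nid2 lies on chromosome 14, 19751265 to 19811787 (GRCm38, plus strand), and its end overlaps 437 bases of Rtraf on the other strand. The row of Rtraf, listed under its older symbol 2700060E02Rik, had 140.0, 105 and 114 TPM in DKO, against 77.6, 84.6 and 89.2 TPM in WT (log2 difference 0.50; limma, adjusted p = 0.0426). The libraries were strand-specific, but whether the quantification used strand is not given in the sources used here, and the part of Rtraf in the Nid2 values was not tested.

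**Figure D2:**
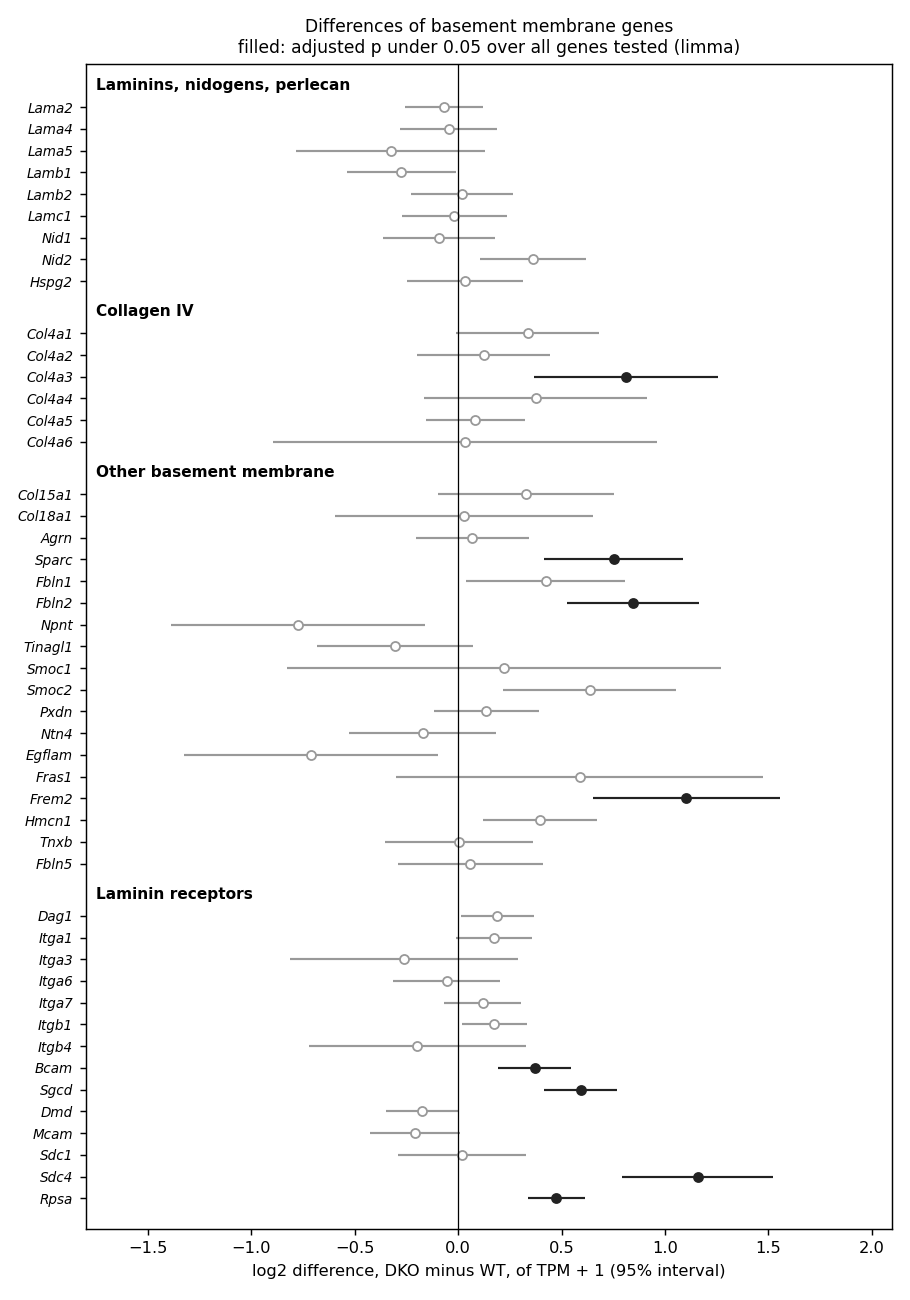
Log2 differences (DKO minus WT, TPM + 1) with 95% intervals from limma for the 9 genes and 3 lists of related genes. The lists are collagen IV, other basement membrane genes, and laminin receptors with associated proteins. Points are filled where the adjusted p over all genes tested was under 0.05. The 9 genes centred near 0, with Nid2 highest at 0.36, and the filled points were Col4a3, Sparc, Fbln2, Frem2, Bcam, Sgcd, Sdc4 and Rpsa, all above 0.

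Ratios between chains within a library do not depend on how the library was scaled. Of 8 ratios compared, 2 had groups that did not overlap. Nid2/Nid1 was 0.325, 0.240 and 0.288 in DKO 7, 8 and 9, against 0.191, 0.211 and 0.207 in WT 4, 5 and 6. Every DKO library was higher, with a log2 difference of 0.48 (exact two-sided permutation test, p = 0.1, adjusted over the 8 ratios 0.4). DKO 7, whose genotype tag says WT, had the highest value, and with that library placed in WT the groups overlapped and the log2 difference was 0.20. Lamb1/Lamb2 was 0.266, 0.250 and 0.214 in DKO, against 0.283, 0.281 and 0.333 in WT. Every DKO library was lower, with a log2 difference of -0.30 (exact permutation test, p = 0.1, adjusted 0.4). With 3 against 3 libraries 0.1 is the smallest p this test can give, so neither ratio could pass.

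As shares, Nid2 made up 24.5%, 19.4% and 22.4% of nidogen TPM in DKO, against 16.04%, 17.4% and 17.1% in WT. Lamb1 made up 20.6%, 19.6% and 17.4% of the TPM of beta chains in DKO, against 21.6%, 21.6% and 24.5% in WT. The proportions between alpha chains overlapped. Lama4/Lama2 averaged 0.831 ± 0.0513 in DKO and 0.818 ± 0.00543 in WT, and Lama5/Lama2 0.612 ± 0.0356 in DKO and 0.745 ± 0.146 in WT (SD, n = 3 each). Lama2 made up 40.3% ± 1.44 of the TPM of alpha chains in DKO and 38.6% ± 2.20 in WT.

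Relative to Lamc1, the 3 alpha chains summed to 1.62 ± 0.0900 in DKO and 1.75 ± 0.0565 in WT, and the 2 beta chains to 2.28 ± 0.122 in DKO and 2.33 ± 0.184 in WT. The nidogens summed to 0.902 ± 0.0665 in DKO and 0.890 ± 0.0463 in WT, and Hspg2 stood at 1.81 ± 0.0806 in DKO and 1.74 ± 0.0964 in WT. These 4 ratios overlapped between the groups, with log2 differences between -0.12 and 0.05. The exact permutation p lay between 0.2 and 0.8.

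**Figure D3:**
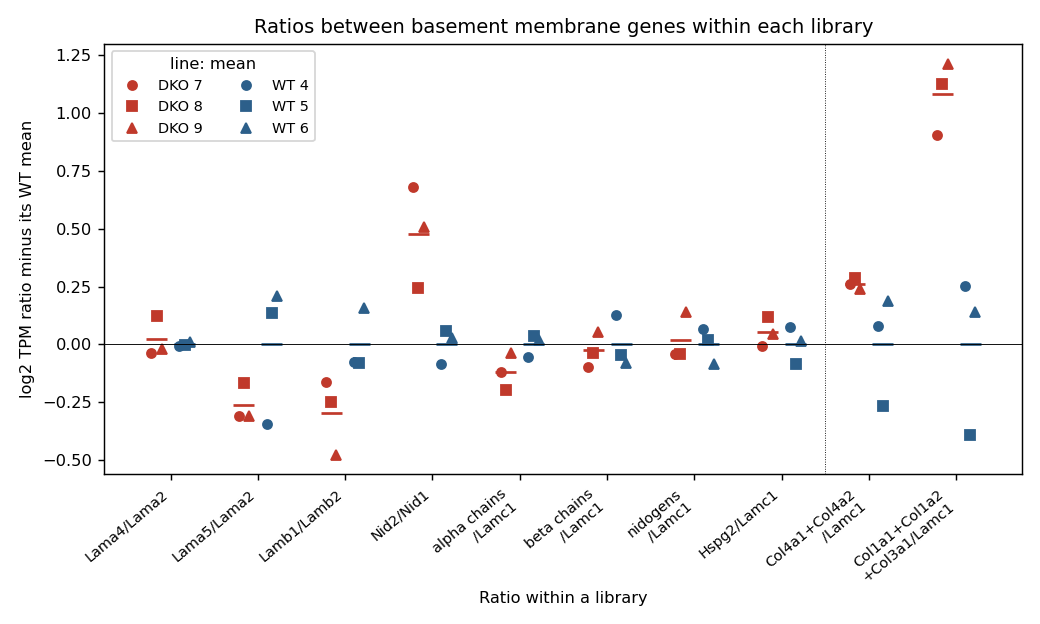
Log2 TPM ratios within each library, minus the WT mean of the ratio, with DKO in red left of WT in blue and a line at each group mean. Nid2/Nid1 was higher and Lamb1/Lamb2 lower in every DKO library; the 2 ratios right of the dotted line were added after the values were seen.

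Collagen ratios were added after the values were seen, to set the laminin network beside the interstitial matrix of fibroblasts. Col1a1, Col1a2 and Col3a1 together stood at 4.02, 4.69 and 4.98 times Lamc1 in DKO 7, 8 and 9, against 2.55, 1.63 and 2.37 times in WT 4, 5 and 6. The log2 difference of 1.08 stayed between 0.89 and 1.21 when each library was left out in turn. Col4a1 and Col4a2, the chains of the common collagen IV of basement membranes, stood at 3.52, 3.60 and 3.48 times Lamc1 in DKO, against 3.11, 2.44 and 3.36 times in WT. Both ratios were higher in every DKO library (exact permutation test, p = 0.1 each, adjusted over the 2 ratios 0.1). That is the smallest p this test can give, and ratios picked from values already seen are not tested by it. With DKO 7 placed in WT by its genotype tag the collagen IV groups would overlap, since DKO 7 lies between DKO 9 and DKO 8. The groups of the Col1a1, Col1a2 and Col3a1 ratio would stay apart. The collagen IV ratio rests partly on WT 5, without which the log2 difference was 0.13 instead of 0.26.

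Among laminin chain genes outside the 9, Lama1 was listed at 0 in all DKO libraries and at no more than 0.0425 TPM in WT, and Lamc3 lay under 1 TPM in every library. Lamb3, the most abundant laminin chain gene outside the 9, had 4.97 ± 1.005 TPM in DKO and 5.33 ± 0.318 TPM in WT (limma, adjusted p = 0.765). Lama3 had 3.32 ± 0.545 TPM in DKO and 2.45 ± 0.628 TPM in WT (log2 difference 0.33; limma, adjusted p = 0.365). Both were low beside the 9 genes, and both had overlapping groups.

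Collagen IV gave 1 gene higher and 0 lower of 6 tested, with a median log2 difference of 0.23; over all genes tested 6.51% were higher and 4.22% lower. Col4a3, a chain best known from the kidney filter, rose to 5.76 ± 0.851 TPM in DKO, against 2.87 ± 0.623 TPM in WT (log2 difference 0.81; limma, adjusted p = 0.0405). That call was lost in each of the 6 fits that left out 1 library (limma, adjusted p 0.0647 to 0.123). Col4a1 averaged 239 ± 30.9 TPM in DKO and 190.4 ± 34.6 TPM in WT and did not pass (log2 difference 0.34; limma, adjusted p = 0.198).

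Of 18 other basement membrane genes tested, 3 were higher and 0 lower, with a median log2 difference of 0.18. Sparc, a collagen-binding matricellular protein, rose to 355 ± 22.4 TPM in DKO, against 213 ± 42.5 TPM in WT (log2 difference 0.75; limma, adjusted p = 0.0225), and its call held in 3 of the 6 fits without 1 library and was lost without DKO 7, DKO 8 or WT 4 (limma, adjusted p up to 0.0782). Fbln2, a fibulin that binds laminin and nidogen, rose to 104 ± 12.3 TPM in DKO, against 57.7 ± 8.74 TPM in WT (log2 difference 0.85; limma, adjusted p = 0.0135), and held in all 6. Frem2, of the complex that anchors epithelia, rose to 19.97 ± 5.35 TPM in DKO, against 8.58 ± 0.773 TPM in WT (log2 difference 1.10; limma, adjusted p = 0.0171), and held in 4, not without WT 5 or WT 6 (limma, adjusted p up to 0.0570). Smoc2, the most abundant that did not pass, had 111 ± 17.4 TPM in DKO and 71.8 ± 15.05 TPM in WT (limma, adjusted p = 0.0668).

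Of 14 genes tested in the list of laminin receptors, which takes in associated proteins such as Sgcd, 4 were higher and 0 lower. The median log2 difference was 0.15. Bcam, a receptor for laminins that contain the Lama5 chain, rose to 231 ± 14.6 TPM in DKO, against 179 ± 10.1 TPM in WT (log2 difference 0.37; limma, adjusted p = 0.0264), and held only without DKO 7 and without WT 5 among the 6 fits that left out 1 library (limma, adjusted p up to 0.0880). The heparan sulfate co-receptor Sdc4 rose to 55.2 ± 2.99 TPM in DKO, against 24.5 ± 5.09 TPM in WT (log2 difference 1.16; limma, adjusted p = 0.00785). Sgcd, a sarcoglycan that accompanies dystroglycan and does not itself bind laminin, rose to 166 ± 3.93 TPM in DKO, against 109.8 ± 8.65 TPM in WT (log2 difference 0.59; limma, adjusted p = 0.00676). Rpsa, best known as a protein of the small ribosomal subunit, rose to 458 ± 12.5 TPM in DKO, against 329.5 ± 12.6 TPM in WT (log2 difference 0.48; limma, adjusted p = 0.00644). Sdc4, Sgcd and Rpsa held in all 6 fits.

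The classical receptors did not pass. Itgb1, the beta subunit shared by the laminin-binding integrins of muscle, had 300.1 ± 13.1 TPM in DKO and 266 ± 14.6 TPM in WT (log2 difference 0.18; limma, adjusted p = 0.147). Dag1, which encodes dystroglycan, had 244 ± 8.24 TPM in DKO and 214 ± 16.5 TPM in WT (log2 difference 0.19; limma, adjusted p = 0.153). In both genes the 3 DKO values lay above the 3 WT values, and 33.0% of all genes tested had groups that did not overlap. Among the other integrin subunits tested in the list, Itga1 (log2 difference 0.17) also had groups that lay apart. The groups overlapped for Itga7 (0.12), Itga6 (-0.05), Itga3 (-0.26) and Itgb4 (-0.20). None of these subunits was called. With a term for sex-linked transcripts the group difference rests on DKO 9 against WT, since DKO 7 and DKO 8 alone had Xist. In that fit 92 genes were called in all and none of the 8 genes named as higher in these lists was (limma, adjusted p 0.0803 for Sgcd to 0.329 for Col4a3). Their log2 differences kept their sign, at 1.16 for Sdc4, 1.04 for Frem2, 0.76 for Fbln2, 0.69 for Col4a3, 0.65 for Sparc, 0.63 for Sgcd, 0.43 for Rpsa and 0.41 for Bcam.

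Within each group the 9 genes tended to be high or low in the same libraries. DKO 7 was the lowest DKO library for 7 of the 9 and DKO 8 the highest for 7. WT 4 was the lowest WT library for 8 of the 9 and WT 5 the highest for 6. As a median over the 9 genes, the deviation from each gene's own mean on the log2(TPM + 1) scale was -0.17, 0.13 and -0.02 in DKO 7, 8 and 9, against -0.10, 0.10 and 0.06 in WT 4, 5 and 6. Over all genes tested the same median was -0.05, 0.07 and 0.04 in DKO and -0.0026, -0.03 and 0.0019 in WT. By this median DKO 7 was also lowest and DKO 8 highest within DKO, with smaller deviations, while the order within WT differed. The share of all genes with the same library lowest or highest was not counted.

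Markers of the cells that make basement membrane were set beside these values. Over all genes tested 6.51% were called higher and 4.22% lower. The 10 endothelial markers summed to 743 to 841 TPM in DKO and 869 to 981 TPM in WT, with 0 higher and 3 lower (Esam, Tie1 and Cdh5). With 1 library left out 1 to 2 of them were lower, and Esam was called in all 6 such fits, Tie1 in 1 and Cdh5 in 0. Their median deviation was -0.23, -0.04 and -0.15 in DKO 7, 8 and 9, against 0.16, 0.04 and 0.17 in WT 4, 5 and 6. The 10 smooth muscle and pericyte markers summed to 839 to 1021 TPM in DKO and 944 to 991 TPM in WT, with 1 higher and 3 lower (1 higher and 2 to 3 lower with 1 library left out). The higher one was Acta2, smooth muscle actin, at 228 ± 63.3 TPM in DKO and 66.5 ± 11.1 TPM in WT. The lower ones were Tagln (log2 difference -0.83), Abcc9 (-0.67) and Kcnj8 (-0.58). Acta2, Tagln and Abcc9 were called in all 6 fits without 1 library, and Kcnj8 in 2. The median deviation of the 10 smooth muscle and pericyte markers was -0.31, -0.0018 and -0.19 in DKO, against 0.12, 0.19 and 0.14 in WT. Of the 10, 8 had a negative log2 difference. The 10 fibroblast markers summed to 1946 to 2473 TPM in DKO and 1897 to 1978 TPM in WT, with 5 higher and 0 lower. With 1 library left out 2 to 4 were higher, and Col3a1 and Mfap5 were called in all 6 such fits, Col1a2 in 2, Col1a1 in 1 and Lum in 1. Their median deviation was 0.05, 0.51 and 0.28 in DKO, against -0.21, -0.43 and -0.18 in WT. With the term for sex-linked transcripts 0 markers of these lists were called. None of the markers in these lists was at 0, and their part in the values of the 9 genes was not tested.

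**Figure D4:**
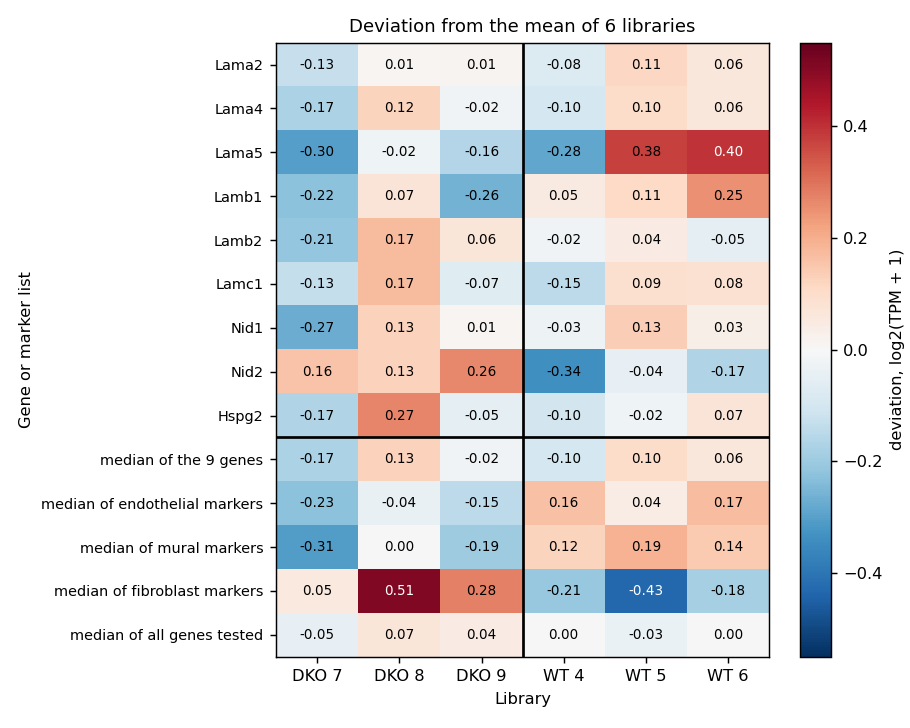
Deviation of each gene from its own mean over 6 libraries, log2(TPM + 1), for the 9 genes (above the line) and as medians of marker lists and of all genes tested (below), with DKO libraries left of WT libraries; mural stands for smooth muscle and pericyte. DKO 7 and WT 4 were low for most of the 9 genes, Lama5 was high in WT 5 and WT 6 alone, and Nid2 separated the groups.

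By the root mean square difference of log2(TPM + 1) over the 6 libraries, each gene centred on its own mean, the patterns closest to Nid2 were those of Plgrkt (0.023) and Zbtb5 (0.042). For Lama5 they were Zbtb12 (0.073) and Pwp2 (0.089), and for Lamb1 5031439G07Rik (0.030) and Supv3l1 (0.034). Lama2 was closest to Ankrd46 and Armc1, Lama4 to Ttc17 and Edc3, Lamb2 to Clasrp and Rnf187, and Lamc1 to Senp3 and Ccz1, each at no more than 0.032. Nid1 was closest to Phf12 and Hdac3, each at no more than 0.034, and Hspg2 to Coa7 (0.027). Among the 9 genes themselves the closest pair was Lama4 and Lamc1 (0.041), and Nid2 was 0.22 from its nearest member, Lamb2. Of the 14541 genes tested, Lamc1 ranked 17 in closeness to Lama4, and Lama4 ranked 7 in closeness to Lamc1. These neighbours are the closest of all genes tested over only 6 values each. No distance expected by chance was computed, and shared regulation was not tested.

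Positions are given in GRCm38 (GENCODE M21). Lama2 spans 26980036 to 27619758 on chromosome 10 (minus strand; 65 exons in the longest coding transcript of 9614 bases), and Lama4 lies on the same chromosome at 38965515 to 39110188 (plus; 38 exons). Lama5 lies at 180176373 to 180225859 on chromosome 2 (minus; 79 exons), Lamb1 at 31265234 to 31329644 on chromosome 12 (plus; 33 exons) and Lamb2 at 108479736 to 108490530 on chromosome 9 (plus; 33 exons). Lamc1 lies at 153218922 to 153332786 on chromosome 1 (minus; 28 exons) and Nid1 at 13437551 to 13512269 on chromosome 13 (plus; 20 exons). Hspg2 lies at 137468769 to 137570630 on chromosome 4 (plus; 97 exons in a transcript of 14187 bases). Each has 3 to 8 annotated transcripts, and the deposited values give no share of any of them, so a change between splice forms at the same total was not measured here.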

How the data were processed

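RNA of 3 DKO and 3 WT heart libraries was analysed from a single table of TPM values that the authors deposited. They come from bcl2fastq and kallisto 0.44.0 with mm10, per the submitters' processing notes. The sources used here do not give the annotation, the strand setting or how transcripts were summed to genes. Rows reaching 1 TPM in 3 or more of the 6 libraries entered a limma fit (version 3.58.1, R 4.3.3, eBayes with a mean trend) of log2(TPM + 1), DKO minus WT. Benjamini-Hochberg adjustment covered every gene tested. This scale understates changes of low genes. The fit was tested on simulated data. Ratios were compared by an exact two-sided permutation test, adjusted over their family. The 9 genes, the lists and the tests were chosen with earlier results of these data known. From each list of related genes, those past the threshold and the most abundant that did not pass are named, with the 2 closest patterns of each of the 9 genes; a few results that these rules select are not reported here. Dag1, Itga1, Itga3, Itga6, Itga7, Itgb4, Lama1, Lama3, Lamc3 and the cell type markers were named after their values were seen. Of 20 other basement membrane genes 1 was not used here, and 2 glycosylation genes were matched through RefSeq synonyms. Positions are from GENCODE M21. Alternatives were a pseudocount of 0.1, no filter, a filter of 5 TPM, 3 other scalings, no trend, array weights, replicate 7 as WT, a covariate for sex-linked transcripts, a fit of only the Y-expressing libraries, and each library left out in turn with the same genes tested; for the lists, the last 3 were added after the values were seen.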

Additional observations from a re-analysis of the deposited data

How the results depend on the processing

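No paired analysis was possible because DKO and WT share no replicate numbers. Over all genes 1560 were called; 622 to 877 were called when 1 library was left out, 1 with replicate 7 as WT, 92 with a term for sex-linked transcripts and 12 in the libraries with Y-linked transcripts alone. Of the 9 genes 0 to 1 were called when 1 library was left out (1, Lama5, without WT 4) and 0 under every other alternative. Nid2, Lamb1 and Lama5 kept their sign in all 17 alternatives, from 0.29 to 0.45 for Nid2, -0.40 to -0.14 for Lamb1 and -0.55 to -0.14 for Lama5. The others lay close to 0 and changed sign without being called. With replicate 7 as WT the log2 difference was 0.019 for Lama2, 0.078 for Lama4, 0.079 for Lamc1 and 0.10 for Nid1. For Lamb2 it was -0.017 with median-ratio scaling, -0.0097 with quantile normalization and -0.0051 without haemoglobin and ribosomal RNA. For Hspg2 it was -0.00091 with median-ratio scaling and -0.033 both with the sex term and in the libraries with Y-linked transcripts alone. With 1 library left out it ranged from -0.12 to 0.029 for Lama4, -0.064 to 0.13 for Lamb2, -0.11 to 0.044 for Lamc1, -0.18 to 0.022 for Nid1 and -0.091 to 0.13 for Hspg2. Among ratios, Lama4/Lama2 differed by -0.022 where Y-linked transcripts were present, and by -0.029 to 0.050 with 1 library left out. The beta chains over Lamc1 differed by 0.034 with replicate 7 as WT, by 0.055 in the libraries with Y-linked transcripts and by -0.067 to 0.037 with 1 left out, and the nidogens over Lamc1 by -0.042 to 0.051 with 1 left out. The other ratios kept their sign; Nid2/Nid1 lay between 0.20 and 0.59 and Lamb1/Lamb2 between -0.48 and -0.21. The cause of these changes was not tested. Depth is unknown, and 3 libraries a group limit the precision to the intervals given.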

Other observations

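Genes for the laminin-binding sugar of dystroglycan, including suppliers of sugar donors such as Dpm1, gave 0 higher and 0 lower of 17 tested (limma). Their median log2 difference was -0.09, and 2 had an unadjusted p under 0.05. Over all genes tested 27.0% had an unadjusted p under 0.05, while 6.51% were called higher and 4.22% lower. Macrophage markers summed to 425 to 574 TPM in DKO and 215 to 319 TPM in WT, with 5 of 10 higher and 2 lower. With 1 library left out 1 to 4 were higher and 2 lower. C1qa was called higher in all 6 such fits, C1qb in 3, C1qc in 2, Adgre1 in 1 and Mrc1 in 0. The lower markers, Cd163 (log2 difference -1.18) and Lyve1 (-0.91), were called in all 6. Cardiomyocyte markers gave 1 higher and 2 lower of 10, and 0 higher and 1 to 3 lower with 1 library left out. Of 6 erythroid markers 0 were higher and 1 was lower, with sums of 1781 to 6764 TPM in DKO and 6045 to 38462 TPM in WT, and 0 to 2 were lower with 1 library left out. These sums hide a split within DKO. Hbb-bs had 1690, 1.15 and 0.892 TPM in DKO 7, 8 and 9, against 1436, 14182.5 and 5293 TPM in WT 4, 5 and 6. Hbb-bt had 216, 0 and 2.52 TPM in DKO, while Hba-a1 had 3096, 1115 and 1407 TPM. The cause of this split was not tested. None of 5 Schwann cell, 6 epicardial and mesothelial and 5 adipocyte markers tested was called (limma), while 0, 2 and 2 of them had an unadjusted p under 0.05. With 1 library left out up to 1 epicardial and mesothelial marker was called higher and up to 1 adipocyte marker lower. The Schwann cell markers summed to 18.4 to 27.9 TPM in DKO and 24.6 to 33.9 TPM in WT, and the epicardial and mesothelial markers to 21.1 to 33.9 TPM in DKO and 19.7 to 53.3 TPM in WT. The adipocyte markers summed to 989.7 to 1055 TPM in DKO and 1058 to 1405 TPM in WT.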
